A study of Mus musculus with 28 samples.

Results

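The array measured 67 probe sets whose gene symbol opens with a neurotransmitter receptor prefix, of 12488 probe sets on it. The prefixes covered the nicotinic (Chrn) and muscarinic (Chrm) acetylcholine receptors, the GABA-A and GABA-B receptors (Gabr, Gabbr), the AMPA, kainate, NMDA and metabotropic glutamate receptors (Gria, Grik, Grin, Grm), the glycine receptors (Glra, Glrb), and the serotonin, dopamine and adrenergic receptors (Htr, Drd, Adra, Adrb), with 1 gene symbol required in the platform annotation. These probe sets stood for 54 genes, of 8251 genes that the array measured with such a single-gene probe set. Of the 67, 63 probe sets belonged to 51 receptor genes. The other 4, for Htra1, Htra2 and Htra3, share the letters Htr but encode HtrA serine proteases and are counted apart. A probe set is a group of short oligonucleotides on the array against 1 transcript, and several genes had more than 1.

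Nicotine acts on nicotinic acetylcholine receptors, pentameric cation channels that open when acetylcholine binds. In brain the alpha7 subunit forms channels of its own with high calcium permeability, and alpha4 with beta2 and alpha3 with beta4 form the other main types. Seizures reflect the balance between glutamate, which excites through AMPA, kainate and NMDA channels, and GABA and glycine, which inhibit through chloride channels, while serotonin, dopamine and noradrenaline act mostly through G protein-coupled receptors that tune that balance.

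RNA from whole brains of 28 mice of strain C57BL/6J was hybridised to Affymetrix U74Av2 arrays, 1 mouse per array. Seized mice were sampled 1 h after seizures brought on by intraperitoneal nicotine and comprised 5 alpha7 +/T, 4 beta4 null and 3 wild-type animals. Untreated mice comprised 5 alpha7 +/T, 5 beta4 null and 6 wild-type animals. The study asked what brain expression looks like after a seizure of like severity in each genotype, and each genotype got its own nicotine dose to reach it, so genotype and dose cannot be told apart among seized mice.

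The alpha7 +/T mice were heterozygous for the Chrna7 allele L250T, known to make the channel more sensitive to agonists, and the beta4 null mice lacked the beta4 subunit. Seized mice were 7 to 8 weeks old and untreated mice 6 to 9 weeks old. In the untreated groups, 4 of 5 alpha7 +/T mice, 1 of 5 beta4 null mice and 3 of 6 wild-type mice were 6 weeks old. All 5 seized alpha7 +/T mice were 8 weeks old, so seizure and age can hardly be told apart in that genotype. Titles of the alpha7 +/T mice all began with LT and those of beta4 null mice all with B4, while wild-type mice had both. The labels do not explain these prefixes. Nothing in the labels says that mice were littermates. A p-value here sets a group difference against the spread between mice within groups. That spread also holds the difference between the array classes described below, unless the class is a covariate.

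Values are MAS5 signals, a linear brightness per probe set, already scaled so that each array's mean without its lowest and highest 2% was 150.1. Array medians ran between 43.6 and 61.1. A probe set was kept for testing when its signal lay above its own array's median in at least 3 arrays, which kept 7350 probe sets of the array (59.2% of those that are not controls) and 38 of the 63 receptor probe sets, from 32 genes. Neuronal markers were bright in all groups: 7 of 8 had a kept probe set, and their summed signal was lowest, at 8515, in an untreated wild-type mouse. In whole brain, fewer cells of a type and less RNA per cell cannot be told apart.

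The arrays fell into 2 classes by the signal of the control probe sets at the 3′ and 5′ ends of Gapdh, a measure of how far labelled RNA reached from the 3′ end. In 9 arrays the log2 ratio of 3′ over 5′ signal was between -0.48 and 0.096, and in the other 19 it was between 1.13 and 2.57. The low-ratio arrays were those of 3 of 5 seized and 2 of 5 untreated alpha7 +/T mice and of 2 of 4 seized and 2 of 5 untreated beta4 null mice. No wild-type array had a low ratio. Within groups the 38 kept receptor probe sets were brighter on low-ratio arrays by a median of 0.65 on the log2 scale, with 31 of 38 above 0. The median over all 7350 kept probe sets was 0.011, with 50.8% above 0. Some of the 38 passed the filter only through low-ratio arrays, which favours that direction. The shift was not particular to receptors. Summed neuronal markers were 11091 to 13471 on low-ratio and 8515 to 11013 on high-ratio arrays. Cerebellar markers went the other way, at 4379 to 5571 and 5574 to 7156. Because of the classes, differences of kept receptor probe sets between a mutant and wild-type mice come with a 2nd value where that changes a call. That value has the class as a covariate or uses the high-ratio arrays alone. Calls of marker and partner genes are given with all arrays only, and whether they hold within a class is not shown. On high-ratio arrays alone, 0.0408% of all kept probe sets were called between untreated alpha7 +/T and untreated wild-type mice.

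**Figure D1:**
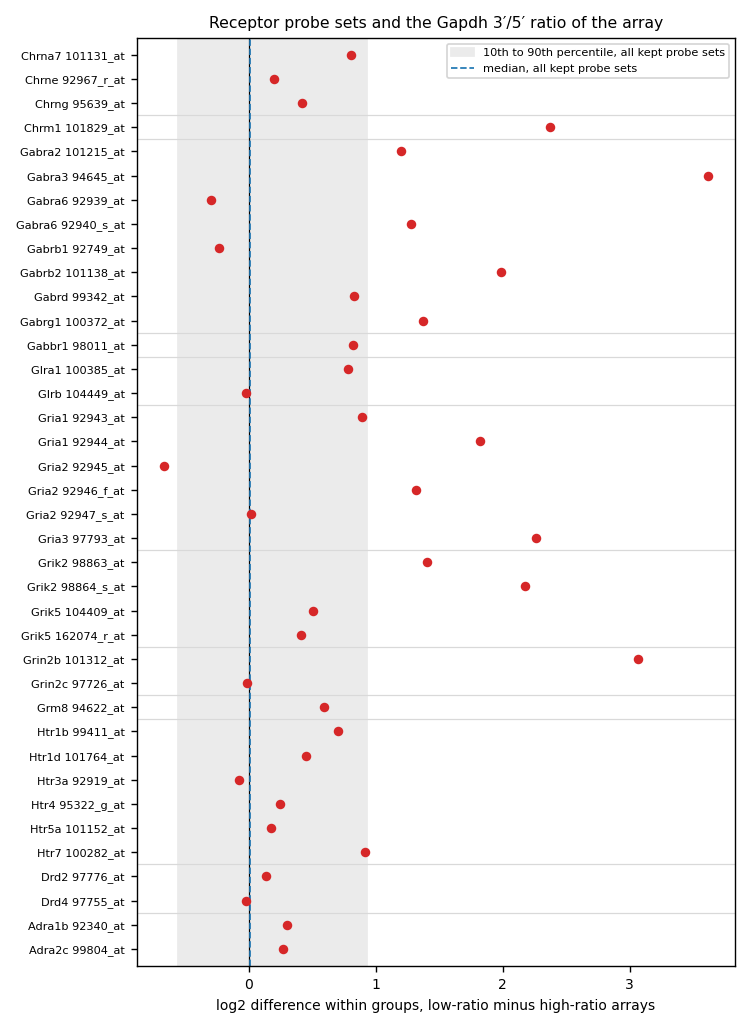
Each point is the log2 difference, low-ratio minus high-ratio arrays within groups, of 1 of the 38 kept receptor probe sets, listed by family. The grey band runs between the 10th and 90th percentile of all kept probe sets, -0.56 and 0.93, and the receptor points run between -0.67 and 3.62.

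The promoters of Chrna7 and of 3 of the 5 genes with a called probe set are shown because nicotine and seizure are the study's stimuli and because activity-regulated factors bind short motifs of the kinds searched. Windows of 300 bases, 250 before and 50 after the annotated start, come from RefSeq on build GRCm38.p6 and matched 38 of the 51 receptor genes. Those of Chrna7 (chr7:63212477-63212776, minus strand), Grik5 (chr7:25072320-25072619, minus strand), Gabra6 (chr11:42321023-42321322, minus strand) and Htr5a (chr5:27841697-27841996, plus strand) read 5′ to 3′ as follows, with capitals for motif matches.
Chrna7: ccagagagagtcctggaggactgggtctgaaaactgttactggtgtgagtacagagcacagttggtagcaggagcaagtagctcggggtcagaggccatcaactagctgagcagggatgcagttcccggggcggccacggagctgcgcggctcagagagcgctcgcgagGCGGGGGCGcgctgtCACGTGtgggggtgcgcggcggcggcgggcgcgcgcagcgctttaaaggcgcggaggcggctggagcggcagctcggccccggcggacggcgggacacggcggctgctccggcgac
Grik5: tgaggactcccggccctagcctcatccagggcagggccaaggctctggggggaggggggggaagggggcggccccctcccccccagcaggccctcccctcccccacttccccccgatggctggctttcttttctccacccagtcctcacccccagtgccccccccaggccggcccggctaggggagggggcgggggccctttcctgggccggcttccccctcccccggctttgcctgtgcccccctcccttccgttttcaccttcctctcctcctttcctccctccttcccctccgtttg
Gabra6: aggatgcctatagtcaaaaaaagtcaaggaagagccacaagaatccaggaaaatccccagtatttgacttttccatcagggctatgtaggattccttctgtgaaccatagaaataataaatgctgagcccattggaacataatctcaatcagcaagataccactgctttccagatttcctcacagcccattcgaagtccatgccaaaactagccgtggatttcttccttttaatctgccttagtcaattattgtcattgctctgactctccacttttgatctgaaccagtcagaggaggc
Htr5a: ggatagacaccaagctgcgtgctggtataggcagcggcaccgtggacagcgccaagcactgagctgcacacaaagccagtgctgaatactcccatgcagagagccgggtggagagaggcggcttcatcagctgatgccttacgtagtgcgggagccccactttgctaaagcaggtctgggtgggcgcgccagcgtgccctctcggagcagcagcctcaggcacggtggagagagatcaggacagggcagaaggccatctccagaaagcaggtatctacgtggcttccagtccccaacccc

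Both strands were searched for an E-box (CACGTG), a cyclic AMP response element (TGACGTCA), an AP-1 site (TGANTCA), an Egr site (GCGNGGGCG) and a TATA box (TATAAA), none of which contains another. The Chrna7 window held 2 of these, an Egr site written GCGGGGGCG that starts at base -81 and an E-box that starts at base -66 from the annotated start. The windows of Grik5, Gabra6 and Htr5a held none. Of all 32841 promoter windows, 7.15% held the E-box, 1.79% the cyclic AMP response element, 7.81% the AP-1 site, 5.55% the Egr site and 13.6% the TATA box. Of 46 receptor windows, 2 held the E-box, 5 the AP-1 site, 5 the Egr site and 4 the TATA box. The windows differed in base composition: GC made up 70% of bases in Chrna7, 72% in Grik5, 61.3% in Htr5a and 42% in Gabra6, against a median of 52.7% over all windows.

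No receptor probe set was called between seized and untreated brains in any genotype. A probe set counted as called when its limma p, adjusted by the Benjamini-Hochberg method over all 7350 kept probe sets, was under 0.05. Averaged over genotypes, 0 of 38 receptor probe sets were called, where the background over all kept probe sets was 0.408%, and 2 had an unadjusted limma p under 0.05. In alpha7 +/T mice 0 of 38 were called against a background of 2.8%, with 10 at an unadjusted limma p under 0.05, which 18.4% of all reached. In beta4 null mice 0 of 38 were called against 0.0136%, with 2 at that unadjusted limma level, and in wild-type mice 0 of 38 against 0.0544%, again with 2. The interaction of genotype and seizure called 0 of 38 against 0.0272% of all, with 5 at an unadjusted limma p under 0.05. Here and below, an unadjusted count given without the share of all probe sets at that level cannot be read as an excess. In simulated data the interaction test recovered 32% of log2 changes of 1 confined to seized alpha7 +/T mice.

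Endothelial markers summed to 727 to 934 in seized and 1109 to 1755 in untreated alpha7 +/T mice, with no overlap, and 2 of 6 kept markers fell, where 2.8% of all were called in either direction: Cldn5 by 1.26 ± 0.29 (SE, adjusted p = 0.018) and Eng by 0.90 ± 0.20 (SE, adjusted p = 0.016). Pituitary markers summed to 11235 in seized alpha7 +/T mouse 2, a low-ratio array, and to at most 546 in any other mouse. Without that mouse the count of called receptor probe sets after seizure in alpha7 +/T mice was also 0. The part of these markers in receptor differences was otherwise not tested.

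Between genotypes, 4 of 38 receptor probe sets were called in untreated alpha7 +/T against untreated wild-type mice, below the 16% called among all. Of the 4, 3 were higher, where 7.73% of all kept probe sets were called higher, and 1 was lower, where 8.29% were. Untreated beta4 null against untreated wild-type mice called 0 of 38 against 0.0136% of all, with 13 at an unadjusted limma p under 0.05, which 12.9% of all reached. Seized alpha7 +/T against seized wild-type mice called 0 of 38 against 0% of all, with 6 at that unadjusted limma level, and seized beta4 null against seized wild-type mice called 0 of 38 against 0.0136%, with 3. The test of any difference among the 6 groups called 1 of 38, the serotonin receptor Htr5a, against 2.23% of all. The comparisons share mice: each untreated group serves several of them.

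**Figure D2:**
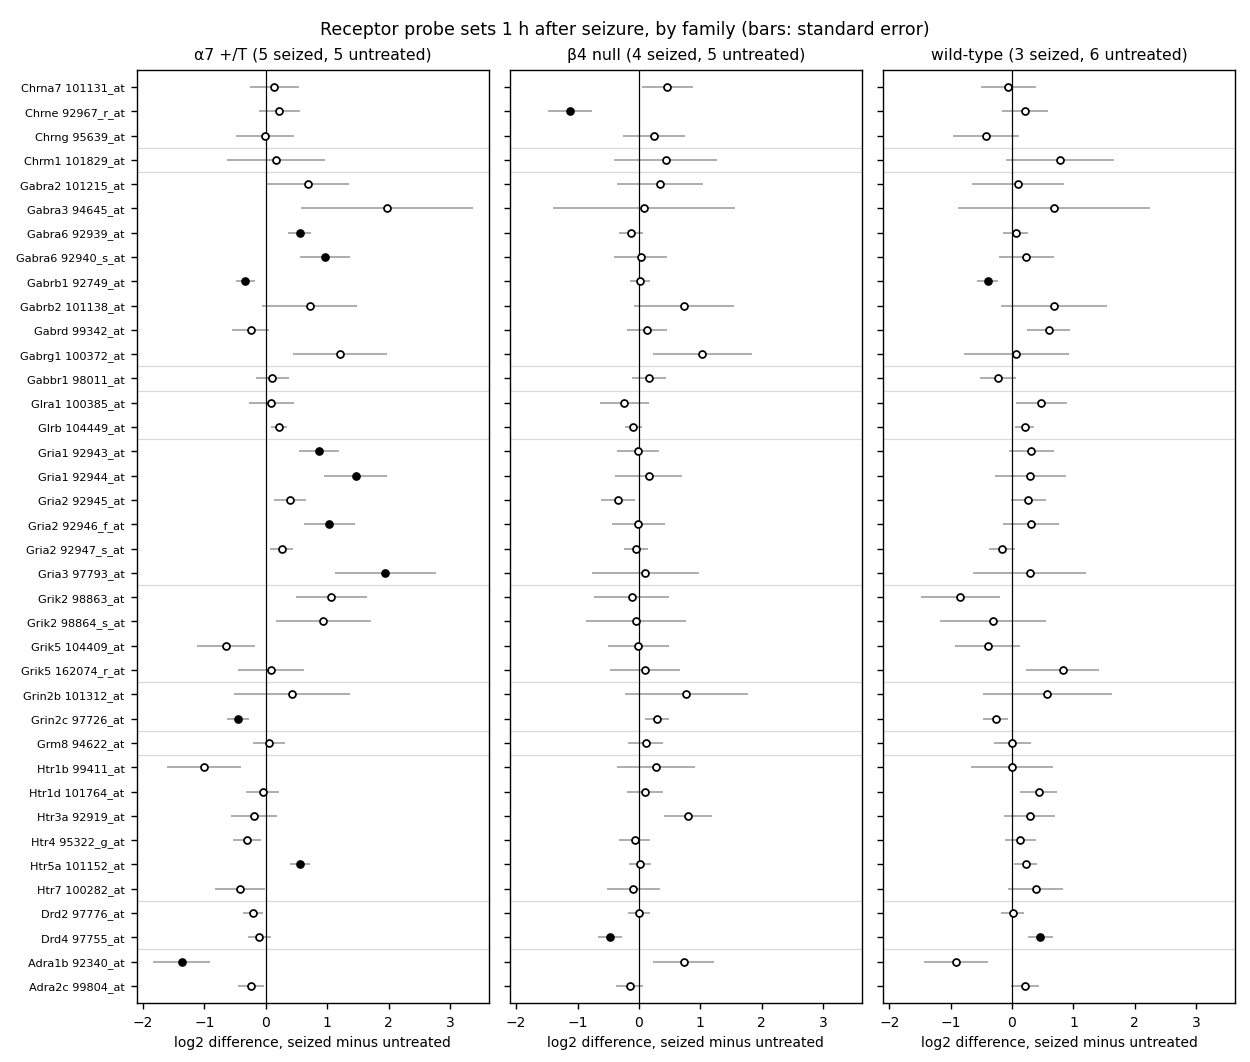
Each point is the log2 difference, seized minus untreated mice, of 1 of the 38 kept receptor probe sets in alpha7 +/T (left), beta4 null (middle) and wild-type mice (right), with its standard error as a bar. Filled points had an unadjusted limma p under 0.05 (10, 2 and 2 probe sets), and none was called after adjustment.

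No comparison called Chrna7, the gene of the alpha7 subunit. Its 1 probe set (101131_at) had signals of 121, 89.3, 78.9, 94.3 and 30.7 in seized alpha7 +/T mice, against 18.3, 111, 134, 91 and 62.5 in untreated alpha7 +/T mice. Seized beta4 null mice had 83.8, 91.9, 67 and 78.8, against 86.5, 82.2, 59.3, 42.6 and 36.2 in untreated beta4 null mice. Seized wild-type mice had 47.7, 56.3 and 71.5, and the 6 untreated wild-type mice had a lowest of 39.6, a median of 63.8 and a highest of 90.9. All groups overlapped, and the highest and the lowest of the 28 signals, 134 and 18.3, were both from untreated alpha7 +/T mice.

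The log2 signal of Chrna7 averaged 6.32 ± 0.19 in seized beta4 null mice, 6.24 ± 0.76 in seized alpha7 +/T, 6.10 ± 1.15 in untreated alpha7 +/T, 5.91 ± 0.41 in untreated wild-type, 5.86 ± 0.56 in untreated beta4 null and 5.85 ± 0.29 in seized wild-type mice (SD, n = 4, 5, 5, 6, 5 and 3). The highest and the lowest mean, both of seized mice, lay further apart than the SD of either group, and the difference was not called. With 1 mouse left out in turn, seized beta4 null minus seized wild-type mice ran between 0.33 and 0.62. Seized alpha7 +/T minus seized wild-type mice ran between 0.22 and 0.71, also not called. Under other settings the 2 differences ran between 0.067 and 0.52 and between -0.0998 and 0.50. Low-ratio arrays were 2 of the 4 seized beta4 null and 3 of the 5 seized alpha7 +/T arrays, and no wild-type array.

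The seizure difference of Chrna7 was 0.13 ± 0.40 (SE, adjusted p = 0.90) in alpha7 +/T, 0.46 ± 0.42 (SE, adjusted p = 1.00) in beta4 null and -0.06 ± 0.45 (SE, adjusted p = 1.00) in wild-type mice on the log2 scale. Untreated alpha7 +/T mice differed from untreated wild-type mice by 0.19 ± 0.38 (SE, adjusted p = 0.73). Its sign turned with the array class as a covariate (-0.13). Chrna7 signals were 78.9 to 134 on the 9 low-ratio arrays and 18.3 to 110.6 on the 19 high-ratio arrays.

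**Figure D3:**
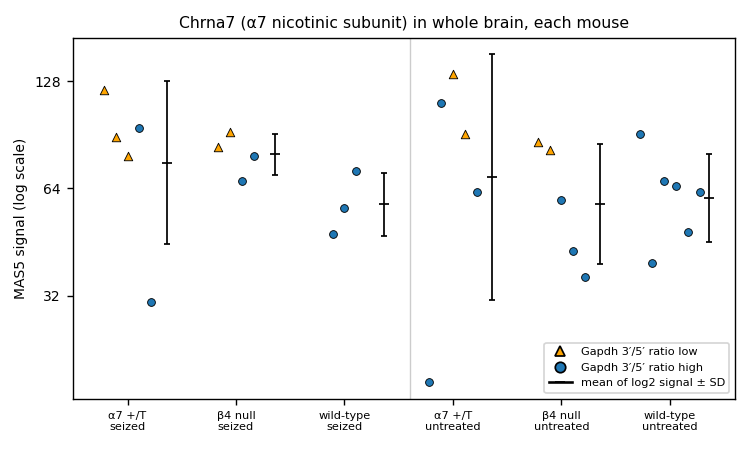
Chrna7 signal (log scale) of each of the 28 mice in 6 groups, with triangles for low-ratio and circles for high-ratio arrays and bars for the mean of log2 signal ± SD. Signals of all groups overlap, and all 9 triangles lie at 78.9 or above.

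Of the 11 nicotinic probe sets, from 8 genes, 3 were kept: those of Chrna7 and 1 each of Chrne and Chrng, subunits best known from muscle. The probe sets of Chrna1, Chrna6, Chrnb1, Chrnb2 and Chrnd, 2 of Chrne and 1 of Chrng were not kept, with signals under the array median in at least 26 of 28 arrays. Chrnb2 encodes the main high-affinity partner of alpha4 in brain. Chrna3, Chrna4, Chrna5 and Chrnb4, the gene removed in the beta4 null mice, are not analysed here, so the null allele was not checked.

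Chrne (92967_r_at) had signals of 67.7, 107, 78.1 and 49.8 in seized beta4 null mice, against 202, 173, 131, 179 and 122 in untreated beta4 null mice. The seized signals were all below the lowest untreated one, and the difference of -1.12 ± 0.36 (SE) on the log2 scale had an adjusted p of 1.00. The dimmer Chrne probe sets, both below the filter, disagreed with each other in the same comparison, at 0.56 ± 0.55 (SE, adjusted p = 1.00 without the filter) for 92965_at and -0.59 ± 0.39 (SE, adjusted p = 1.00) for 92966_g_at. In the other genotypes Chrne differed by 0.22 ± 0.34 (SE, adjusted p = 0.79) in alpha7 +/T and 0.21 ± 0.38 (SE, adjusted p = 1.00) in wild-type mice. Chrng (95639_at) had 12.9, 9.06, 14.9, 9.52 and 45 in untreated beta4 null mice, and a lowest of 34.5, a median of 49.6 and a highest of 62.9 in untreated wild-type mice. All but 1 of the beta4 null values lay under the wild-type range, and the difference was -1.62 ± 0.46 (SE, adjusted p = 0.34). This probe set lay above the array median in 5 arrays. The other Chrng probe set, 161215_at, lay above it in none and differed the opposite way, by 1.35 ± 0.42 (SE, adjusted p = 0.41) without the filter. In untreated alpha7 +/T against untreated wild-type mice, 161215_at was higher by 1.91 ± 0.42 (SE, adjusted p = 0.017), a value picked after it was seen, where 7.25% of all 12422 probe sets were called without the filter. Muscle markers were near the array median: 3 of 4 had a kept probe set, and the 4 genes' summed signal ran between 111 and 229 over all mice.

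Chrm1, the main muscarinic receptor of cortex and hippocampus, was the 1 kept of 2 muscarinic genes, with Chrm4 not kept. It had signals of 58.6, 93.3, 186, 156 and 5.7 in untreated alpha7 +/T mice and 148, 160.0, 16.1, 28.3 and 31.5 in untreated beta4 null mice, against a lowest of 7.01, a median of 17.3 and a highest of 24.5 in untreated wild-type mice. Seized mice had 175, 88.2, 129, 49.5 and 16.3 (alpha7 +/T), 138, 160.0, 34.6 and 28.9 (beta4 null) and 32.2, 15.2 and 40.2 (wild-type). The high values were those of the low-ratio arrays, 88.2 to 186, whereas high-ratio arrays ran between 5.70 and 93.3. Untreated alpha7 +/T mice differed from untreated wild-type mice by 1.98 ± 0.76 (SE, adjusted p = 0.068) on the log2 scale, and by 1.03 ± 0.49 (SE, adjusted p = 0.16) with the array class as a covariate. Of the other genes of the cholinergic synapse, 4 of 11 listed had a kept probe set. None was called after seizure in any genotype, and 1 was called in untreated alpha7 +/T mice: Ache, the enzyme that breaks down acetylcholine, was higher by 0.87 ± 0.29 (SE, adjusted p = 0.044). In that comparison 16% of all kept probe sets were called, so this count and those of the other lists below are read against that share.

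Among GABA-A receptors, 8 of 11 probe sets were kept, from 7 of 10 genes. None was called after seizure, and in untreated alpha7 +/T mice 1 rose and 1 fell. Gabra6 encodes the alpha6 subunit of cerebellar granule cells, and Gabrd encodes the delta subunit of extrasynaptic receptors that carry tonic inhibition.

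Gabra6 (92939_at) had signals of 531, 389, 224, 400.0 and 543 in untreated alpha7 +/T mice, and a lowest of 428, a median of 621 and a highest of 774 in untreated wild-type mice. All 5 alpha7 +/T mice lay below the wild-type mean, with overlap, and Gabra6 fell by 0.58 ± 0.18 on the log2 scale (SE, adjusted p = 0.032). Seized alpha7 +/T mice had 622, 537, 499, 633 and 647, 5 of 5 above the untreated alpha7 +/T mean, a difference of 0.55 ± 0.19 (SE, adjusted p = 0.094). The 2nd Gabra6 probe set (92940_s_at) was not called between the genotypes, at 0.082 ± 0.39 (SE, adjusted p = 0.89), and after seizure in alpha7 +/T mice differed by 0.97 ± 0.41 (SE, adjusted p = 0.19). With the array class as a covariate both probe sets were called after seizure in alpha7 +/T mice, at 0.61 ± 0.17 (SE, adjusted p = 0.017) and 0.71 ± 0.23 (SE, adjusted p = 0.038), and the untreated difference was no longer called, at -0.46 ± 0.16 (SE, adjusted p = 0.070).

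Of 9 listed cerebellar markers, 8 had a kept probe set, and 2 fell in the same untreated comparison, where 8.29% of all kept probe sets were called lower: Zic1 by 0.79 ± 0.23 (SE, adjusted p = 0.027) and Car8 by 0.90 ± 0.28 (SE, adjusted p = 0.032). The median of the 8 was -0.020 and none rose. Their summed signal was 4379 to 6494 in untreated alpha7 +/T mice and 5822 to 7120 in untreated wild-type mice. The 2 lowest sums, 4379 and 4975, were those of the 2 low-ratio alpha7 +/T arrays. Astrocyte markers summed to 2109 to 2937 in untreated alpha7 +/T mice, against 2903 to 3523 in untreated wild-type mice, with 1 of 5 kept markers called, Gja1, lower by 0.58 ± 0.15 (SE, adjusted p = 0.02). The part of these markers in the Gabra6 difference was not tested.

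Gabrd (99342_at) had 83.4, 99.7, 147, 184 and 48.8 in untreated alpha7 +/T mice, and a lowest of 35.7, a median of 58.8 and a highest of 79 in untreated wild-type mice. The 2 highest were low-ratio arrays and the lowest alpha7 +/T value lay within the wild-type range. Gabrd rose by 0.90 ± 0.30 (SE, adjusted p = 0.04) in that comparison, by 0.57 ± 0.22 (SE, adjusted p = 0.087) with the array class as a covariate, and its difference was -0.34 ± 0.47 (SE, adjusted p = 1.00) with the 6-week-old mice left out, which left 1 untreated alpha7 +/T mouse. Its seizure difference was -0.25 ± 0.31 (SE, adjusted p = 0.74) in alpha7 +/T, 0.13 ± 0.33 (SE, adjusted p = 1.00) in beta4 null and 0.59 ± 0.34 (SE, adjusted p = 1.00) in wild-type mice.

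Gabrb1 (92749_at), a beta subunit found in most brain regions, had signals of 790.0, 968, 882, 934 and 888 in seized alpha7 +/T mice, against 1339, 1677, 1025, 883 and 870.0 in untreated ones. Seized wild-type mice had 925, 918 and 689, and untreated wild-type mice a lowest of 922, a median of 1107 and a highest of 1299. All seized mice of both genotypes lay below the mean of their untreated group, and no test called it, at -0.33 ± 0.15 (SE, adjusted p = 0.24) and -0.40 ± 0.17 (SE, adjusted p = 1.00). Averaged over genotypes the difference was -0.24 ± 0.094 (SE, adjusted p = 0.47). In beta4 null mice it was 0.013 ± 0.16 (SE).

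Gabra2 (101215_at), an alpha subunit of forebrain synapses, had 102, 160.0, 43.7 and 52.9 in seized beta4 null mice, against 9.49, 66 and 22.3 in seized wild-type mice, a difference of 1.70 ± 0.80 (SE, adjusted p = 0.76). The other kept probe sets of GABA-A receptors, for Gabra3, Gabrb2 and Gabrg1, had seizure differences of 1.97, 0.71 and 1.21 in alpha7 +/T mice, 0.086, 0.74 and 1.03 in beta4 null mice, and 0.69, 0.69 and 0.07 in wild-type mice, none called. With the array class as a covariate the differences were 1.25, 0.32 and 0.93 in alpha7 +/T mice. In beta4 null mice they were then -0.28, 0.54 and 0.89. Gabbr1, a subunit of the G protein-coupled GABA-B receptor, had 1525, 1950, 1517, 827 and 816 in seized alpha7 +/T mice, against 719, 667 and 741 in seized wild-type mice. Every alpha7 +/T value lay above every wild-type value, and the difference was 0.82 ± 0.30 (SE, adjusted p = 0.40). Over all mice Gabbr1 was 1196 to 2166 on the 9 low-ratio arrays and 636 to 1081 on the 19 high-ratio arrays, with no overlap between the classes.

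Both glycine receptor genes were kept and neither was called. Glrb, the subunit that anchors the receptor at synapses, had seizure differences of 0.21 ± 0.13 (SE, adjusted p = 0.41) in alpha7 +/T, -0.092 ± 0.14 (SE, adjusted p = 1.00) in beta4 null and 0.20 ± 0.15 (SE, adjusted p = 1.00) in wild-type mice. Its signals were 1592, 2220, 1591, 1213 and 1669 in seized and 1440, 1516, 1241, 1128 and 1778 in untreated alpha7 +/T mice, groups that overlap. Glra1, the spinal and brainstem alpha subunit, differed by 0.092, -0.24 and 0.48 in the same order of genotypes. Of 13 listed partners of GABA and glycine receptors, 6 had a kept probe set and 0 were called after seizure in any genotype. In untreated alpha7 +/T mice 1 of 6 was called, Gabarapl1, a relative of the GABA-A receptor-associated protein, higher by 0.43 ± 0.10 (SE, adjusted p = 0.013), a count near the 16% called among all.

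**Figure D4:**
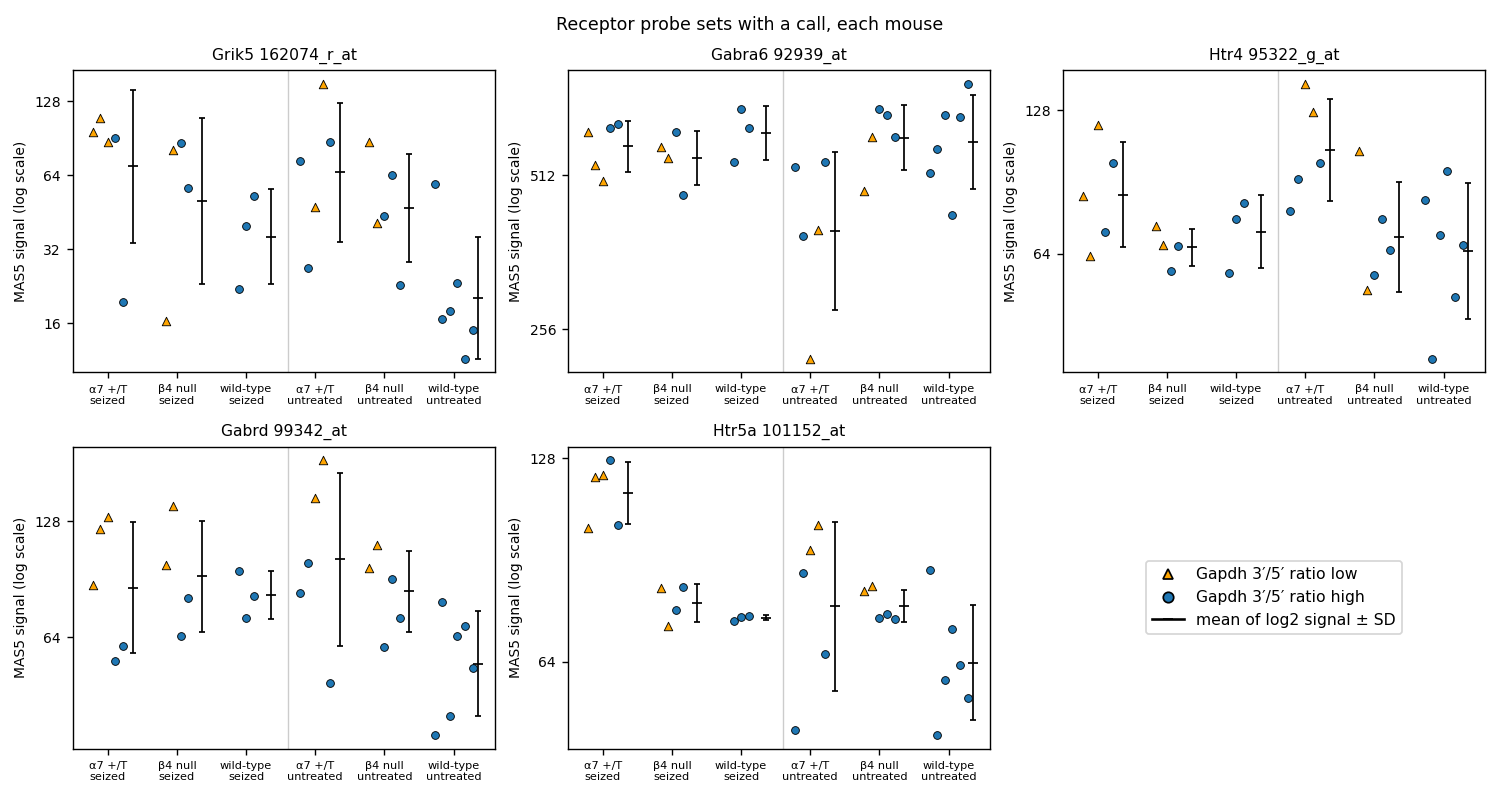
Signal (log scale) of each mouse in the 6 groups for the 5 receptor probe sets with a call: Grik5, Gabra6, Htr4 and Gabrd between untreated alpha7 +/T and untreated wild-type mice, and Htr5a among the 6 groups. Triangles are low-ratio and circles high-ratio arrays, and bars give the mean of log2 signal ± SD. The 5 seized alpha7 +/T mice of the Htr5a panel lie between 101 and 127, above the other seized mice.

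AMPA receptors carry fast excitation, and 6 of their 8 probe sets were kept, for Gria1, Gria2 and Gria3. The 6 stand for 3 genes, so they are not independent, and that of Gria3 passed the filter only through low-ratio arrays. Such arrays were 3 of 5 seized and 2 of 5 untreated alpha7 +/T arrays. In alpha7 +/T mice all 6 were above 0 after seizure, with a median log2 difference of 0.95 against 0.015 for all kept probe sets. None was called, and 4 of 6 had an unadjusted limma p under 0.05, a level that 18.4% of all kept probe sets reached in that comparison. The median over the 6 was -0.014 in beta4 null and 0.29 in wild-type mice. With the array class as a covariate the 6 differences in alpha7 +/T mice ran between 0.25 and 1.49.

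Gria1 had signals of 524, 481, 378, 137 and 106 by probe set 92944_at in seized alpha7 +/T mice, against 90.9, 40.4, 177, 229 and 57.8 in untreated ones. The 3 highest seized values were low-ratio arrays, as were the 2 highest untreated values, and the difference was 1.47 ± 0.52 (SE, adjusted p = 0.11). Probe set 92943_at had 469, 483, 489, 211 and 206 in seized and 124, 163, 282, 200.0 and 210.0 in untreated alpha7 +/T mice, a difference of 0.87 ± 0.32 (SE, adjusted p = 0.13). With the class as a covariate both were called, 92944_at at 1.10 ± 0.20 (SE, adjusted p = 0.0014) and 92943_at at 0.69 ± 0.22 (SE, adjusted p = 0.041). Beta4 null mice had 279, 308, 121 and 87.3 after seizure, against 314, 424, 69.1, 121 and 82.2 untreated, by 92944_at (0.16 ± 0.55 (SE, adjusted p = 1.00)). Wild-type mice, all on high-ratio arrays, had 89.6, 78.1 and 119 after seizure, and untreated a lowest of 56.7, a median of 77 and a highest of 95 (0.29 ± 0.58 (SE, adjusted p = 1.00)).

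The probe sets of Gria2, the subunit that makes AMPA channels impermeable to calcium, disagreed with each other. The probe set of the f type (92946_f_at) had 343, 369, 406, 106 and 114 in seized and 104, 91.3, 82.5, 214 and 102 in untreated alpha7 +/T mice, a difference of 1.04 ± 0.41 (SE, adjusted p = 0.16). The brightest (92947_s_at) had 2242, 2169, 1774, 1564 and 1872 in seized and 2281, 1332, 864, 1788 and 2209 in untreated alpha7 +/T mice, a difference of 0.26 ± 0.19 (SE, adjusted p = 0.49). Within groups, low-ratio arrays were brighter than high-ratio arrays by 1.31 for 92946_f_at and dimmer by 0.67 for 92945_at on the log2 scale, so probe sets for 1 gene moved in opposite directions with the array class. The untreated beta4 null mice had 420.0, 372, 118, 106 and 130.0 by 92946_f_at, and untreated wild-type mice a lowest of 78.5, a median of 89.4 and a highest of 118, a difference of 1.06 ± 0.39 (SE, adjusted p = 0.36). The 2 highest beta4 null values were those of low-ratio arrays, and no wild-type array had a low ratio. Under other settings the difference ran between 0.36 and 1.09.

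With the array class as a covariate, 6 receptor probe sets were higher and 1 lower after seizure in alpha7 +/T mice, where 13.3% of all kept probe sets were called. The higher ones were both of Gria1, both kept ones of Gabra6, 92946_f_at of Gria2 at 0.77 ± 0.22 (SE, adjusted p = 0.022) and Htr5a at 0.52 ± 0.16 (SE, adjusted p = 0.033), and the lower one was Adra1b at -1.43 ± 0.46 (SE, adjusted p = 0.039). With seized alpha7 +/T mouse 2, the one high in pituitary markers, left out as well, a setting added after the data were seen, 6 were called against 12.4% of all: 92944_at of Gria1, both kept ones of Gabra6, 92946_f_at and 92945_at of Gria2, and Htr5a, all higher. On the low-ratio arrays alone, 3 seized against 2 untreated alpha7 +/T mice, 10 of 38 were higher and none lower. All 10 were GABA-A, AMPA or kainate probe sets, and 9.28% of all kept probe sets were called. These families hold probe sets that passed the filter only through low-ratio arrays, and several probe sets for 1 gene. The count of 10 therefore cannot be read as an excess. Summed neuronal markers on these arrays were 12211 to 12999 in seized and 11091 and 11133 in untreated mice. Endothelial sums were lower in seized mice, at 727 to 921 against 1249 and 1357. The part of these markers in the 10 calls was not tested. On the high-ratio arrays alone, 2 seized against 3 untreated alpha7 +/T mice, 0 of 38 were called by limma, with 7 at an unadjusted p under 0.05, where 0.177% of all were called. Whether the seizure difference itself depends on the class was not tested. The seized alpha7 +/T mice were all 8 weeks old and 4 of 5 untreated ones 6 weeks old. Seizure and age can therefore hardly be told apart in these calls.

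Kainate receptors had 4 of 5 probe sets kept, for Grik2 and Grik5. Grik5 encodes a high-affinity subunit that works only together with others. Its probe set 162074_r_at had signals of 72.8, 26.9, 47.4, 150.0 and 87.4 in untreated alpha7 +/T mice, and a lowest of 11.5, a median of 17.3 and a highest of 58.7 in untreated wild-type mice. All 5 lay above the wild-type mean and 1 wild-type mouse overlapped them, and Grik5 rose by 1.69 ± 0.51 (SE, adjusted p = 0.03). Untreated beta4 null mice had 87.3, 41.1, 43.8, 64.3 and 22.8, a difference from wild type of 1.21 ± 0.51 (SE, adjusted p = 0.37). The brighter Grik5 probe set 104409_at had 607, 658, 314, 500.0 and 272 in untreated alpha7 +/T mice, and a lowest of 83, a median of 516 and a highest of 807 in untreated wild-type mice, a difference of 0.25 ± 0.45 (SE, adjusted p = 0.71), so the call rests on 1 of 2 probe sets. With the array class as a covariate the difference by 162074_r_at was 1.52 ± 0.52 (SE, adjusted p = 0.057). Its seizure differences were 0.084, 0.098 and 0.83 in alpha7 +/T, beta4 null and wild-type mice. The kept probe sets of Grik2 differed after seizure by 1.07 and 0.94 in alpha7 +/T, -0.12 and -0.046 in beta4 null and -0.84 and -0.31 in wild-type mice, none called. With the array class as a covariate the alpha7 +/T values were 0.79 and 0.50.

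NMDA receptors had 2 of 4 probe sets kept, for Grin2b and Grin2c. Grin2c, the subunit of cerebellar granule cells, had 241, 217, 251, 273 and 217 in seized alpha7 +/T mice, against 397, 397, 289, 287 and 283 in untreated ones. All seized values were below all untreated ones, and the difference was -0.45 ± 0.18 (SE, adjusted p = 0.17). Untreated beta4 null mice had 213, 230.0, 173, 215 and 214, and untreated wild-type mice a lowest of 176, a median of 277 and a highest of 433, a difference of -0.45 ± 0.17 (SE, adjusted p = 0.37). Cerebellar markers showed 0 of 8 called in both of these comparisons. Grin2d, not kept, had medians of 17.5, 18.9 and 16.3 in seized alpha7 +/T, beta4 null and wild-type mice and of 31.8, 30.6 and 21.7 in the untreated groups in the same order. Grm8, a presynaptic metabotropic receptor, was the 1 probe set of its family, with seizure differences of 0.053, 0.11 and 0.0035 in that order. Of 34 listed partners of glutamate receptors 14 had a kept probe set, 0 were called after seizure in any genotype, and 1 was called in untreated alpha7 +/T mice: Dlg4, the postsynaptic scaffold PSD-95, was higher by 1.51 ± 0.36 (SE, adjusted p = 0.015). That count lies below the 16% called among all.

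Serotonin receptors had 6 of 13 probe sets kept, for Htr1b, Htr1d, Htr3a, Htr4, Htr5a and Htr7. Htr5a, a receptor coupled to inhibitory G proteins, was called among the 6 groups (adjusted p = 0.049). Its signals were 101, 120.0, 121, 127 and 102 in seized alpha7 +/T mice, 82.4, 72.2, 76.2 and 82.5 in seized beta4 null mice and 73.6, 74.5 and 74.8 in seized wild-type mice. They were 50.8, 86.6, 93.6, 102 and 65.7 in untreated alpha7 +/T and 81.3, 82.9, 74.4, 75.2 and 73.9 in untreated beta4 null mice, and untreated wild-type mice had a lowest of 49.9, a median of 61.8 and a highest of 87.5. Seized alpha7 +/T mice did not overlap the seized mice of the other genotypes, and 1 untreated alpha7 +/T mouse reached their range.

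By pairs of groups Htr5a was not called: the seizure difference was 0.56 ± 0.17 (SE, adjusted p = 0.062) in alpha7 +/T, 0.014 ± 0.18 (SE, adjusted p = 1.00) in beta4 null and 0.22 ± 0.19 (SE, adjusted p = 1.00) in wild-type mice. Seized alpha7 +/T against seized wild-type mice gave 0.61 ± 0.19 (SE, adjusted p = 0.40). Its low-ratio and high-ratio arrays differed by 0.17 on the log2 scale within groups, and the call among the 6 groups was lost on the high-ratio arrays alone and without any 1 of 24 of the 28 mice.

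Htr4, a receptor that raises cyclic AMP, had 1 of 3 probe sets kept. Probe set 95322_g_at had 78.8, 91.7, 145, 127 and 98.9 in untreated alpha7 +/T mice, and a lowest of 38.5, a median of 68.5 and a highest of 95.5 in untreated wild-type mice. All 5 lay above the wild-type mean, with overlap, and Htr4 rose by 0.70 ± 0.22 (SE, adjusted p = 0.034). With the array class as a covariate it was 0.60 ± 0.22 (SE, adjusted p = 0.076). The seizure difference was -0.31 ± 0.23 (SE, adjusted p = 0.51) in alpha7 +/T mice. Htr3a, the serotonin-gated cation channel and a relative of nicotinic receptors, had 25.8, 57.3, 56.2 and 66.9 in seized beta4 null mice, against 54.4, 30.2, 14, 48.3 and 15.4 in untreated ones, a difference of 0.80 ± 0.39 (SE, adjusted p = 1.00). Under other settings that difference ran between -0.076 and 1.49. Htr1b, Htr1d and Htr7 were not called in any comparison, with differences in untreated alpha7 +/T against untreated wild-type mice of 1.41, 0.71 and 0.61.

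Dopamine receptors had 2 of 3 probe sets kept, for Drd2 and Drd4, and adrenergic receptors 2 of 2, for Adra1b and Adra2c. None was called in any comparison. Drd4 had 75.3, 52.8, 66.3 and 44.6 in seized beta4 null mice, against 91.2, 57.7, 81.5, 87.2 and 93.7 in untreated beta4 null mice (-0.47 ± 0.20 (SE, adjusted p = 1.00)). In wild-type mice it had 70.0, 94.3 and 88.1 after seizure, and untreated a lowest of 44.6, a median of 61.7 and a highest of 79.3 (0.46 ± 0.21 (SE, adjusted p = 1.00)). The differences had opposite signs, and the interaction of genotype and seizure was not called (adjusted p = 0.47). Drd2, the receptor of striatal indirect-pathway neurons, differed by -0.21, -0.0031 and 0.0092 after seizure in alpha7 +/T, beta4 null and wild-type mice.

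Adra1b, which couples noradrenaline to calcium release, had 31, 18.7, 21.9, 11.5 and 8.47 in seized alpha7 +/T mice, against 49, 58.1, 52.1, 37.1 and 26.2 in untreated ones. All 5 seized values lay below the untreated mean, with overlap, and the difference was -1.37 ± 0.47 (SE, adjusted p = 0.098). In wild-type mice it was -0.91 ± 0.53 (SE, adjusted p = 1.00) and in beta4 null mice 0.73 ± 0.50 (SE, adjusted p = 1.00), with an adjusted p of 0.49 for the interaction. Adra2c, an autoreceptor of noradrenaline neurons, differed by -0.24, -0.15 and 0.21 after seizure in alpha7 +/T, beta4 null and wild-type mice. Of 17 listed genes of monoamine synapses 5 had a kept probe set, and limma called 0 in these comparisons. In untreated alpha7 +/T against untreated wild-type mice, 3 had an unadjusted limma p under 0.05. There 16% of all kept probe sets were called after adjustment, so at least that share lay under 0.05 unadjusted. The HtrA protease probe sets that share the prefix, 3 kept of 4, had 0 called, with 2 at an unadjusted limma p under 0.05 in that comparison.

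The untreated groups behind the 4 calls differed in age, with 4 of 5 alpha7 +/T and 3 of 6 wild-type mice 6 weeks old, and in class, with 2 of 5 alpha7 +/T and 0 of 6 wild-type arrays of low ratio. On the high-ratio arrays alone Grik5 differed by 1.45, Htr4 by 0.46, Gabrd by 0.44 and Gabra6 by -0.30 on the log2 scale, with limma calling 0 of 38 receptor probe sets and 5 at an unadjusted p under 0.05. With age as a covariate the differences were 1.60, 0.69, 0.89 and -0.54 in the same order, and limma again called 0. Among 6-week-old mice with LT titles alone, a comparison added after the data were seen, they were 1.23, 0.82, 1.34 and -0.67, none of them called. The 1 receptor probe set called there was Chrm1, at 3.28 ± 0.47 (SE, adjusted p = 0.035), where 1.73% of all were called and where 2 of the 4 alpha7 +/T arrays and none of the 3 wild-type arrays were of low ratio. The median over the 38 was 0.29 with all mice, 0.068 with the class as a covariate and 0.17 on the high-ratio arrays, against 0.063 for all kept probe sets with all mice. Left out in turn, untreated wild-type mouse 3, 5 or 6 or untreated alpha7 +/T mouse 3 or 4 took the count of called receptor probe sets to 0, and untreated alpha7 +/T mouse 1 or 5 took it to 7.

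Centring each array on its median moved the median of all kept probe sets to -0.18 in this comparison, and the share of called probe sets that were higher to 13.3%, against 48.3% with the deposited scaling and 36.8% with quantile normalization. With median centring the receptor calls were 1 higher, Grik5, and 3 lower, Gabra6 and 2 probe sets of Gria2, and with quantile normalization Gabra6 alone was called. After seizure in alpha7 +/T mice the share of called probe sets that were higher was 61.2% with the deposited scaling and 50% with median centring.

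**Figure D5:**
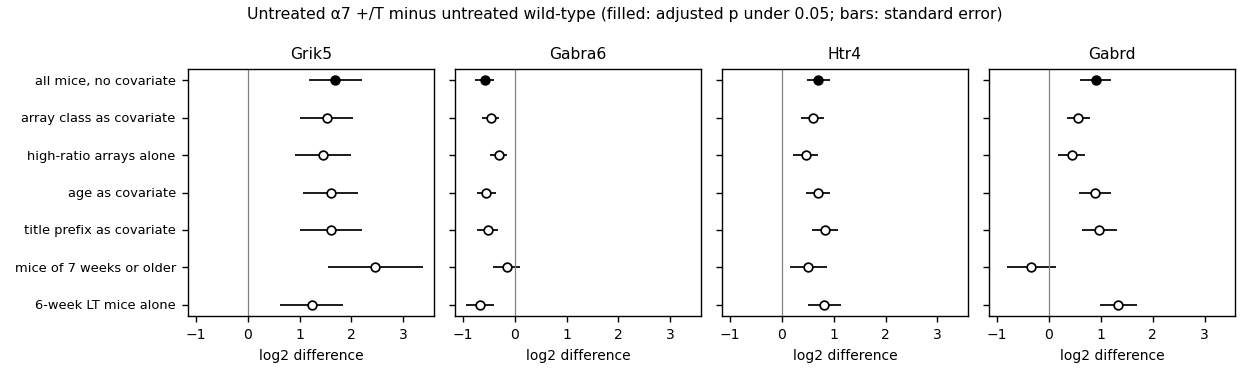
Log2 difference, untreated alpha7 +/T minus untreated wild-type mice, of the 4 called receptor probe sets with all mice and under 6 other settings. Bars are standard errors, and points are filled where the limma adjusted p was under 0.05. Settings not shown differed: with sex as a covariate all 4 stayed called, and with quantile normalization Gabra6 alone did. Median centring, no filter and a fit of the compared groups alone each lost some of the 4 calls. Gabrd alone changes sign, at -0.34 in mice of 7 weeks or older, and none is called under the other settings shown.

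Some probe sets outside those named by rule had the largest class differences and were picked after their values were seen. Gabra3 had signals of 5.01 to 87.1 on low-ratio and 0.768 to 10.7 on high-ratio arrays, and Grin2b had 44.8 to 119.6 and 4.14 to 32.3. Gria3 had 11.7 to 159 on low-ratio and 3.40 to 36.4 on high-ratio arrays. By family, all 4 kept kainate probe sets, 5 of 6 AMPA, 6 of 8 GABA-A and 5 of 6 serotonin probe sets were brighter on low-ratio arrays within groups. The medians were 0.96, 1.10, 1.24 and 0.35 on the log2 scale. The kainate, AMPA and GABA-A values include probe sets that passed the filter only through low-ratio arrays.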

How the data were processed

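Total RNA of whole brain from 28 mice was labelled from oligo-dT primed cDNA and hybridised to Affymetrix U74Av2 arrays, per the labels' protocols. The deposited intensity values are MAS5 signals, per the submitters' processing notes (version not given in the sources used here), and the values themselves showed that the authors scaled each array to the same trimmed mean. Signals ran between 0.0251 and 19046.3. No 2 arrays were identical. The number of arrays per group limits the precision.

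Signals were log2 transformed without further scaling or a floor (a floor at 11.6, the 25th percentile, was an alternative). Arrays were put in a low-ratio or a high-ratio class by a Gapdh 3′ over 5′ log2 ratio of 0.5. Probe set names came from the platform annotation, where 10833 probe sets had 1 gene symbol and 396 several, and the symbols of all 51 receptor genes matched the RefSeq gene table of GRCm38.p6. limma 3.58.1 in R 4.3.3 fitted all 6 groups together with a variance trend, and p-values were adjusted by the Benjamini-Hochberg method over all kept probe sets at 0.05. Members, gene lists and tests were chosen with earlier results of these data known. Named were Chrna7, the brightest gene of each family (and the next where a family has at least 4 genes), every called receptor probe set, and the 3 receptor probe sets with the smallest p in each comparison, which gave 26 probe sets of 23 genes.

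Alternatives were median centring, quantile normalization, other filters and floors, variance settings, array weights, covariates for array class, sex, age and title prefix, subsets of arrays, and each mouse left out. The fit was tested on simulated data of 7350 probe sets: for the average seizure effect it recovered 92% of changes of 1 and 52% of changes of 0.5 on the log2 scale, for alpha7 +/T mice 71% and 13%, for beta4 null mice 62% and 10%, and for wild-type mice 59% and 10%. Of changes made in seized alpha7 +/T mice alone, the interaction test recovered 32% and 4%.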

Additional observations from a re-analysis of the deposited data

Results flagged for a closer look

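Of 130 tests, each asking whether 1 mouse stood far from the rest of its group (groups of 4 to 6 mice, 26 named probe sets), 6 met the criterion. Chance alone flags about 1 in 20 groups. In untreated beta4 null mice, mouse 2 had a Drd4 signal of 57.7 where the group's median was 87.2, mouse 3 had a Grin2c signal of 173 with a median of 214, and mouse 4 had a Grin2d signal of 7.63 with a median of 30.6. In untreated alpha7 +/T mice, mouse 4 had a Gria2 signal (92946_f_at) of 214 with a median of 101.9. In seized alpha7 +/T mice, mouse 5 was low in both Grik5 probe sets, with 131 by 104409_at where the median was 316 and 19.6 by 162074_r_at where it was 90.3.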

How the results depend on the processing

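The count of called receptor probe sets was 0 under every alternative for the seizure difference in beta4 null and in wild-type mice, for untreated beta4 null against wild-type mice and for the interaction of genotype and seizure. In simulated data these tests recovered between 32% and 62% of log2 changes of 1 (untreated mice were not simulated). With array weights it was 8 for the averaged seizure difference (8.78% of all kept probe sets were called), 9 for seized alpha7 +/T (13.7%) and 13 for seized beta4 null (27.2%) against seized wild-type mice, and 21 for any difference among the 6 groups (42.2%). The seizure count in alpha7 +/T mice, 0 with all arrays, was 7 with the array class as a covariate (6 with seized alpha7 +/T mouse 2 also left out), 10 on low-ratio arrays alone and 2 with sex as a covariate, and it ran between 0 and 2 with 1 mouse left out (1 without untreated alpha7 +/T mouse 4 and 2 without mouse 5). For untreated alpha7 +/T against wild-type mice, the count of 4 became 1 with quantile normalization, 1 in a fit of the compared groups alone, 1 in 6-week-old mice with LT titles, and 0 with the array class, age or title prefix as a covariate, on high-ratio arrays alone and in mice of 7 weeks or older. It ran between 0 and 7 with 1 mouse left out. The count of 1 for any difference among the groups became 0 with quantile normalization, median centring, no filter, high-ratio arrays alone, age or title prefix as a covariate and mice of 7 weeks or older, and ran between 0 and 3 with 1 mouse left out (3 without untreated alpha7 +/T mouse 5). The cause of these changes was not tested.

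Chrna7 was never called: none of 171 values under other settings and none of 280 with 1 mouse left out. Its sign changed where differences were small. In alpha7 +/T mice the seizure difference was -0.026 with the array class as a covariate, -0.0070 with seized mouse 2 also left out, -0.22 on low-ratio arrays and between -0.34 and 0.46 with 1 mouse left out. In wild-type mice it was 0.062 with sex as a covariate and between -0.22 and 0.077 with 1 mouse left out. Untreated alpha7 +/T against wild-type mice gave -0.045 with median centring, -0.071 with array weights, -0.13 with the array class as a covariate, -0.26 on high-ratio arrays and between -0.047 and 0.67 with 1 mouse left out. Untreated beta4 null against wild-type mice gave -0.20 to 0.11 with 1 mouse left out, and seized alpha7 +/T against wild-type mice -0.094 with the class as a covariate and -0.0998 on high-ratio arrays. The Gabrd difference between untreated alpha7 +/T and wild-type mice reversed to -0.34 in mice of 7 weeks or older. The Htr3a seizure difference in beta4 null mice turned to -0.076 under 1 other setting. Of 513 values of the other named probe sets under other settings, 60 changed their call.

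Low-ratio arrays held no wild-type mouse. On them the seizure differences of alpha7 +/T and beta4 null mice were fitted, and no comparison with wild-type mice was run. No paired analysis was possible because replicate numbers follow accession order and pair no mice across groups. Small groups limit the power.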
